A study of Homo sapiens with 4 samples.

Results

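The 9 genes described here are metallothioneins and zinc response genes: the metallothioneins MT2A, MT1E, MT1X, MT1M, MT1F, MT1A and MT1G, the zinc-sensing transcription factor MTF1, and the zinc exporter gene SLC30A1. They were taken by gene identifier from the 26485 identifiers of the deposited tables, and all 9 were found, each in a single row. RNA had been sequenced from 2 lines of anaplastic thyroid cancer, SW1736 and 8505C, each given vehicle (DMSO) or 1.5 µM DHT for 24 h, with no genetic change named for either line. DHT stands here for dihydrotanshinone, a tanshinone from Salvia root, as the title of the series gives it. Each line and treatment is 1 library, 4 in all, so no value below has a replicate error and no difference has a test.

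Metallothioneins are very small cytosolic proteins in which cysteines recur along the whole chain and hold zinc and copper ions. When free zinc in the cell goes up, MTF1 binds metal response elements, short motifs close to the start of metallothionein genes and of SLC30A1, and the RNAs made store zinc (the metallothioneins) or carry it out of the cell (SLC30A1, also called ZNT1). Metallothioneins are also induced by heavy metals, oxidants and glucocorticoids, and in thyroid tumours some of their genes, MT1G among them, are known for silencing by promoter methylation.

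The coding sequences of the metallothionein family are so alike that short reads can be hard to place, which bears on the metallothionein levels given below. Those of the isoforms present in both lines (MT2A, MT1X) and of MT1E, the most abundant isoform present in a single line, are shown from GENCODE 29 transcripts (GRCh38), 5′ to 3′ and spliced, with capitals at each base that differs from MT2A.
MT2A: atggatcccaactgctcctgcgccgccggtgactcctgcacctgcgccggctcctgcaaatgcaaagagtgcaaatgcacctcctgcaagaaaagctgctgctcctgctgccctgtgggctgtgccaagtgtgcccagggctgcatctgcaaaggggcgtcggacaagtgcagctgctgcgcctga
MT1E: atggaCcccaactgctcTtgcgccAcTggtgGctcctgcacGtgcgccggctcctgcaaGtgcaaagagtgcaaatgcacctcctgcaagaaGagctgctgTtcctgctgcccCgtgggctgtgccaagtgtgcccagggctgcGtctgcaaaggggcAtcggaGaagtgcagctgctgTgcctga
MT1X: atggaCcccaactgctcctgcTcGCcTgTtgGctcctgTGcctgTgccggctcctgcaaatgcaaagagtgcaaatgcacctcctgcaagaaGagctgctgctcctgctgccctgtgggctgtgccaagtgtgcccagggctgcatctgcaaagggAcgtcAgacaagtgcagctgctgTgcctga
Each is 186 bases long with its stop codon, and 20 of its 61 codons are cysteine codons (TGT or TGC). MT1E and MT1X each differed from MT2A at 14 bases. Over all 28 pairs of 8 metallothionein coding sequences (6 members with MT1B and MT1H), identity ran from 88.7% to 95.2%.

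Outside the coding part the mRNAs differ more. Of all 50-base windows of the longest protein-coding transcript, 4.88% in MT2A, 10.6% in MT1E, 14.3% in MT1G and 55.8% in MT1X also occurred in a transcript of another gene. For MT1F and MT1M this share was 3.59% and 7.05%. MT1A was not examined. With windows of 100 bases this share was 0% for every metallothionein examined except MT1X (50.8%), which shares sequence with AC026461.1, a GENCODE gene that starts at the same base and overlaps it. Read length is not given in the sources used here, so the levels of MT1F, MT1M and MT1A, which are low beside those of MT2A, are uncertain. No other row of the deposited tables overlapped a member.

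Sequence upstream of the start was available from RefSeq (GRCh38.p14) for 4 of the 9 members, MT2A, MT1X, SLC30A1 and MTF1. The 250 bases before the start are shown for the first 3, the members whose mRNA was present in all 4 libraries and that metal response elements are known to serve, written 5′ to 3′ on the gene's strand with capitals at each core of a metal response element.
MT2A, chr16:56608334-56608583, plus strand: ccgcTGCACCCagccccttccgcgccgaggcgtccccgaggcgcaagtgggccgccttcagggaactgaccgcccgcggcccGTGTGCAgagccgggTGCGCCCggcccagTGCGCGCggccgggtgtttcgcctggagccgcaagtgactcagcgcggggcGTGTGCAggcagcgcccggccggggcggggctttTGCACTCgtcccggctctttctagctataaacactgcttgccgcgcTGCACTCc
MT1X, chr16:56682220-56682469, plus strand: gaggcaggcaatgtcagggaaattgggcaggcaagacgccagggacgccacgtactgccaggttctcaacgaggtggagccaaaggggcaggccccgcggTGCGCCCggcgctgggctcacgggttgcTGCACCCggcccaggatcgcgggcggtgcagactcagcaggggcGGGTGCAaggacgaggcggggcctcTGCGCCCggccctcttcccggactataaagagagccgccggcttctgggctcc
SLC30A1, chr1:211579162-211579411, minus strand: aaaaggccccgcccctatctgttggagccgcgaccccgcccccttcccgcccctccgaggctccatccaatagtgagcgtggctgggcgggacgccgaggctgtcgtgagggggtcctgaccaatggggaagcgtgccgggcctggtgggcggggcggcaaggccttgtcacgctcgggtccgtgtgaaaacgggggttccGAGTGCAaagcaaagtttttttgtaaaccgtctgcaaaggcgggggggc
The core was searched as TGCACNC or TGCGCNC on both strands. MT2A held 7 of them, MT1X 4 and SLC30A1 1, and no match was found in the same window of MTF1. Among 20321 promoters of protein-coding genes, some genes having several, 28.6% held at least 1 core, 0.418% held 4 or more and 0.0344% held at least 7. MT2A and MT1X each had a TATA box (TATAAA, in 8.77% of promoters), and MT2A, MT1X and SLC30A1 each held 1 core of the antioxidant response element (TGACNNNGC, in 11.2%). MT1H, a metallothionein listed at 0 in every library, held 8 cores. The deposited row of SLC30A1 ends at 211578757, inside the RefSeq gene, so the window lies upstream of the start that was counted. The deposited row of MT2A starts at 56608566, before the window ends, so the last of its 7 cores lies inside the counted gene.

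The libraries held 3.27 to 4.15 Gb of aligned bases, taken from the ratio of coverage to FPKM. Levels are the TPM of the deposited tables (a share of all transcripts that allows for their length), and folds are differences of log2(TPM + 1), a scale that understates the fold of low genes. The epithelial keratins KRT7, KRT8 and KRT18 stood at 403 TPM or more in all libraries, whereas the epithelial adhesion genes EPCAM and CDH1 were at 0.184 TPM or less. Of the thyroid transcription factors, PAX8 (87.1 and 117 TPM with DMSO and DHT) and FOXE1 (60.6 and 22.3) were present in SW1736 and NKX2-1 (69.8 and 174) in 8505C. The differentiation genes TG and TSHR were at 0.0587 TPM or less throughout. Of 4 immune markers the summed level was 1.43 to 4.31 TPM. The summed level of 3 endothelial markers was 0.0427 and 0.118 TPM in SW1736 (DMSO and DHT) and 128 and 147 in 8505C, nearly all of it CDH5. The 4 fibroblast markers summed to 351 and 146 TPM in SW1736, nearly all of it COL1A1, with PDGFRA listed at 0, and to 0.767 and 1.04 in 8505C. The part of these line differences in the results below was not tested. In bulk RNA, more cells with an mRNA and more of it per cell cannot be told apart.

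The untreated lines were compared first, to set the level from which each line met the compound. Metallothionein mRNA was far more abundant in SW1736 than in 8505C: the 7 metallothioneins summed to 5539 TPM in SW1736 with DMSO and to 803 in 8505C with DMSO, a 6.90-fold difference. They made up 0.554% and 0.0803% of all TPM. The lines also differed in which genes were on the list, since MT1E, MT1M and MT1F had values in SW1736 alone and MT1A in 8505C alone. MT1G was listed at 0 in all 4 libraries.

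**Figure D1:**
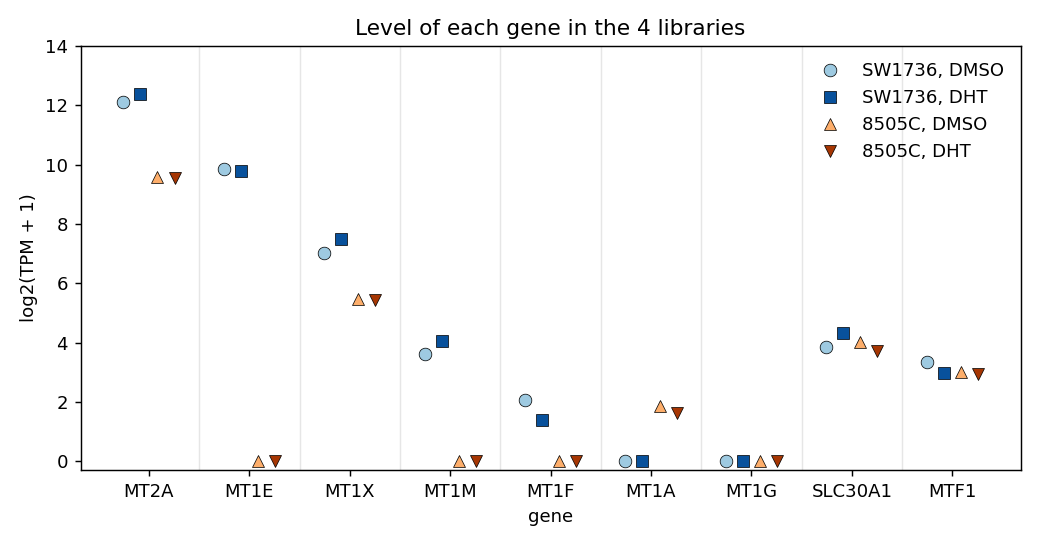
Level of each of the 9 genes as log2(TPM + 1), with 1 symbol per library (SW1736 in blues, 8505C in oranges, DMSO pale and DHT dark). MT2A and MT1X lie higher in both SW1736 libraries than in both 8505C libraries, MT1E, MT1M and MT1F lie at 0 in 8505C, and SLC30A1 and MTF1 lie close together in all 4.

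MT2A, the main metallothionein of most human tissues, lies on chromosome 16 (56608566 to 56609497, hg38, plus strand). Its 2 SW1736 libraries gave 4463 TPM (DMSO) and 5358 TPM (DHT), and its 2 8505C libraries 757 TPM (DMSO) and 750 TPM (DHT). Both SW1736 libraries were thus far above both 8505C libraries. Untreated 8505C was 5.89-fold lower (log2 fold -2.56), and 97.3% of all tested genes had a higher fold between the lines. By level MT2A ranked 7 among all identifiers in untreated SW1736 and 167 in untreated 8505C.

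MT1E, an MT1 isoform that not every cell type makes (chromosome 16, 56625673 to 56627113, plus strand), reached 932 TPM in untreated and 885 TPM in treated SW1736 cells. In both 8505C libraries it was listed at 0, so no fold is given. The reads behind the SW1736 values were many, with a mean depth over its exons of 1500 and 1744. MT1L, a transcribed pseudogene that lies between MT2A and MT1E, followed the same division, with 160 and 219 TPM in SW1736 and listed at 0 in 8505C.

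MT1X, at the far end of the cluster (56682470 to 56684196, plus strand), was the only MT1 gene with a value in all 4 libraries. Its levels were 130 and 181 TPM in SW1736 with DMSO and DHT and 42.8 and 42.6 TPM in 8505C. The untreated lines differed 3.04-fold (log2 fold -1.58), a smaller gap than for MT2A. The remaining isoforms were scarce. MT1M was at 11.2 and 15.7 TPM in SW1736, MT1F at 3.18 and 1.63 there, and both were listed at 0 in 8505C. MT1A was listed at 0 in SW1736, and in 8505C it reached 2.62 TPM (DMSO) and 2.13 TPM (DHT). MT1F and MT1A rest on a mean depth of 2.95 to 4.68 over their exons, which leaves little precision.

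Regulator and exporter differed less between the untreated lines than MT2A and MT1X. MTF1 (chromosome 1, 37809567 to 37859620, minus strand) was at 9.26 TPM in untreated SW1736 and 7.12 in untreated 8505C, a log2 fold of -0.34. SLC30A1 (chromosome 1, 211575039 to 211578757, minus strand), which exports zinc across the plasma membrane, was at 13.3 and 15.2 TPM, a log2 fold of 0.17. Their 4 values spanned 6.67 to 9.26 TPM for MTF1 and 12.2 to 19.3 TPM for SLC30A1. Between the DHT libraries SLC30A1 was 1.58-fold lower in 8505C (log2 fold -0.62, or -0.9997 relative to the median gene), in the direction of the metallothioneins, and MTF1 was at -0.02.

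All members but MT1G averaged 1 TPM or more across libraries and were counted, which leaves 8. Between the untreated lines 5 of these 8 were at least 2-fold lower in 8505C, beside 12.6% of the 11706 protein-coding genes tested, and 1 (MT1A) was higher, beside 9.97%. Of these 6, MT1E, MT1M, MT1F and MT1A owe their place to a library listed at 0. Listed at 0 in both libraries of a line, they passed the filter on mean TPM only through the other line. The filter thus nearly fixed their calls, here and between the DHT libraries. For them the shares of all tested genes are no yardstick. The counts were again 5 lower and 1 higher between the DHT libraries, where 10.6% and 24.7% of tested genes were lower and higher. With 1 library per group, line and library cannot be told apart.

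**Figure D2:**
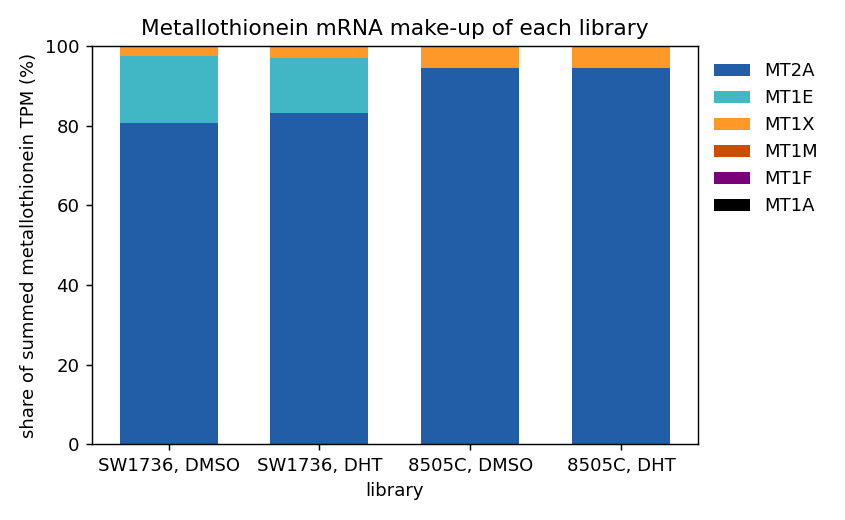
Share of each metallothionein in the summed TPM of the 7 genes, as stacked bars for the 4 libraries (percent, 1 library per bar). MT1E takes 16.8% and 13.7% of the SW1736 bars and none of the 8505C bars, where MT2A and MT1X make up nearly all. MT1M, MT1F and MT1A are too scarce to be seen.

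The make-up of the metallothionein mRNA differed between the lines more than between treatments. MT2A held 80.6% of it in SW1736 with DMSO and 83.2% with DHT, and 94.3% and 94.4% in 8505C. The share of MT1E was 16.8% and 13.7% in SW1736. MT1X held 2.35% and 2.81% in SW1736 and 5.34% and 5.36% in 8505C, so that it was the larger part of a smaller total in 8505C. MT2A exceeded MT1X 34.2-fold in untreated SW1736 and 17.7-fold in untreated 8505C.

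**Figure D3:**
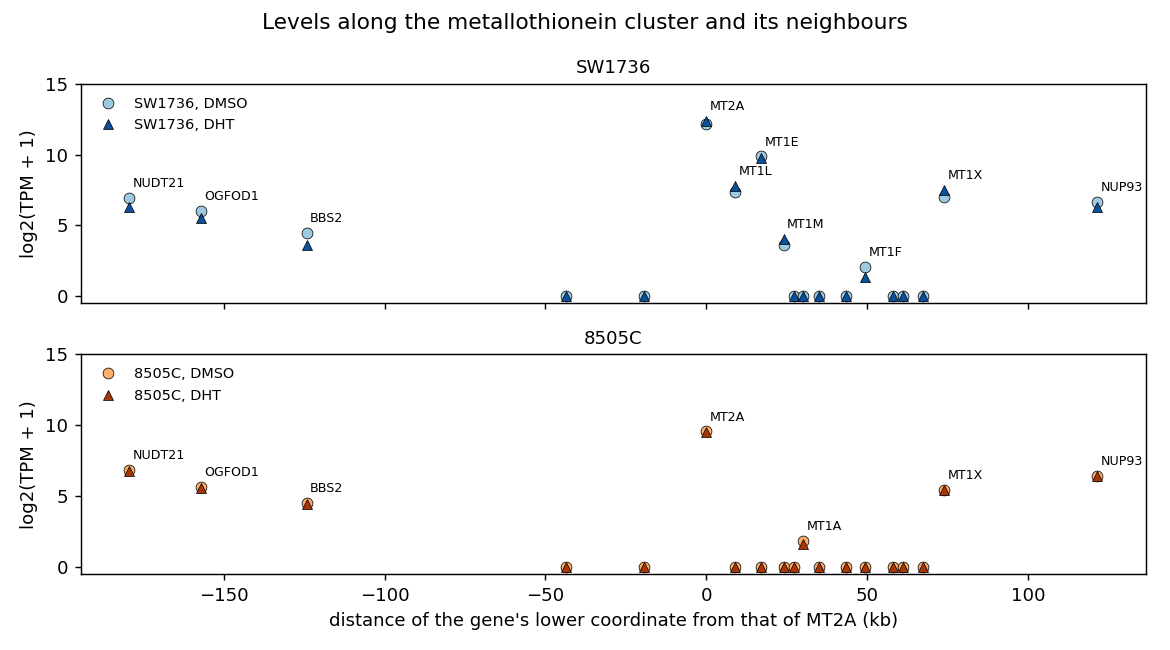
Levels as log2(TPM + 1) of genes on chromosome 16 by the distance of their lower coordinate from that of MT2A (kb), with SW1736 above, 8505C below, circles for DMSO and triangles for DHT. Unlabelled symbols at 0 are metallothionein genes and pseudogenes listed at 0 in both libraries. The neighbours NUDT21, OGFOD1, BBS2 and NUP93 have like levels in the DMSO libraries of both lines, whereas the DHT libraries differ more for BBS2 (11.2 TPM in SW1736, 20.9 in 8505C), and MT1L, MT1E, MT1M and MT1F have values in SW1736 alone.

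The 7 metallothioneins lie within 75.6 kb. The cluster was set beside its neighbours to see whether the line difference reached past it. In the DMSO libraries the adjacent genes did not share it: NUDT21, a subunit of an mRNA 3′ end processing factor, was at 123 TPM in untreated SW1736 and 116 in untreated 8505C. BBS2, of the ciliary BBSome, was at 20.9 and 22.3 TPM, and NUP93, a nuclear pore gene, at 99.8 and 85.8. Of 6 flanking genes tested, 1, the G protein gene GNAO1, was at least 2-fold lower in 8505C (5.20 and 0.198 TPM) and none was higher. Of all tested genes 12.6% were lower and 9.97% higher. With DHT none of the 6 was 2-fold apart in either line. Of all tested genes 2.78% were higher and 15.6% lower in SW1736, and 0.273% and 0.171% in 8505C. HERPUD1, a gene of the endoplasmic reticulum stress response, was the highest of the 6 in SW1736 (40.7 to 77.0 TPM, log2 fold 0.91, or 1.33 and thus past 2-fold relative to the median gene). Within the cluster the genes with values were interleaved with genes listed at 0. Of 9 further metallothionein genes and pseudogenes with a row in the tables, 8 (MT1B, MT1H, MT1JP, MT1IP, MT1DP, MT3, MT4 and, on chromosome 1, MT1HL1) were listed at 0 in all libraries.

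The next question was whether DHT was accompanied by a metallothionein or zinc response. In SW1736 no member was 2-fold apart in either direction, beside 2.78% of tested genes higher and 15.6% lower with DHT. Most genes of this line had lower TPM with DHT, with a median log2 fold of -0.42 over all tested genes (-0.43 for genes averaging 5 TPM or more), and the members are therefore given relative to the second median as well. The median of the 7 members with values was 0.26.

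MT2A was 1.20-fold higher with DHT in SW1736 (log2 fold 0.26, or 0.69 relative to the median gene). MT1X was 1.39-fold higher (0.47, or 0.90) and MT1M 1.40-fold higher (0.45, or 0.88). MT1E stood nearly level at -0.07, which is 0.35 relative to the median gene and 0.15 with FPKM in place of TPM, so that its direction depends on the scaling. MT1F was at -0.67 and -0.24, from 3.18 to 1.63 TPM at low depth. The summed metallothionein level went from 5539 to 6441 TPM, a ratio of 1.16, or of 1.36 by FPKM.

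Except for the scarce MT1F, these small differences lay among those of other genes with short mRNAs. The longest metallothionein mRNA has 829 bases, and the 213 tested genes with mRNAs no longer than that had a median log2 fold of 0.13 in SW1736, with quartiles of -0.10 and 0.39, whereas the third with the longest mRNAs had a median of -0.72. Members left out, 34.3% of 207 short-mRNA genes had a higher fold than MT2A, 19.8% than MT1X, 21.7% than MT1M and 72.9% than MT1E. MT1F lay toward the lower end, with 96.6% above it. The part of mRNA length in these values was not tested.

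SLC30A1, a known target of MTF1 with a long mRNA, lay toward the upper end of the third of genes with the longest mRNAs. It was placed there by a GENCODE mRNA of 5474 bases, and its deposited row (211575039 to 211578757) spans fewer bases. Its SW1736 libraries gave 13.3 TPM (DMSO) and 19.3 TPM (DHT), a log2 fold of 0.50, or 0.93 relative to the median gene. Only 5.63% of tested genes, and 3.36% of 3779 other genes in the third with the longest mRNAs, had a higher fold. This is still short of 2-fold, and the 2 libraries give no error. MTF1, whose protein is switched by zinc binding more than by its amount, was at -0.40 (9.26 to 6.79 TPM), which is 0.03 relative to the median gene.

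In 8505C the metallothioneins that had values differed little between the libraries with and without DHT. MT2A stood at 757 and 750 TPM (log2 fold -0.015) and MT1X at 42.8 and 42.6 (-0.0091). The sign of both is lost with FPKM (0.0078 and 0.013) or relative to the median gene (0.017 and 0.023). MT1A was at 2.62 and 2.13 TPM (-0.21) at low depth. No member was 2-fold apart, as was so for nearly all genes of this line (0.273% higher and 0.171% lower). SLC30A1 was the member farthest from 0, at 15.2 and 12.2 TPM (-0.30), and 96.6% of tested genes had a higher fold. MTF1 was at -0.08.

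**Figure D4:**
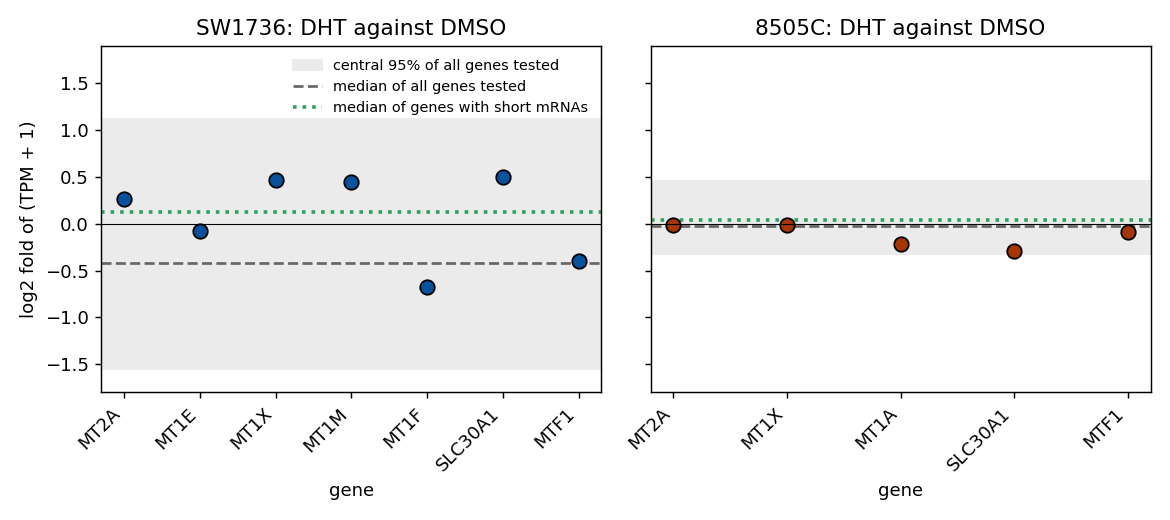
Log2 fold of (TPM + 1) with DHT against DMSO for the members with values in both libraries of a line (1 library each, no error bars), SW1736 on the left and 8505C on the right. The grey band holds the central 95% of all tested genes (-1.55 to 1.12 in SW1736, -0.32 to 0.46 in 8505C), the dashed line their median, and the dotted line the median of genes with mRNAs of at most 829 bases. All members lie within the band in both lines.

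Other zinc genes were read from lists of family members. Of 9 further exporters of the SLC30 family, 5 were tested, and in SW1736 2 of these were at least 2-fold lower with DHT and none higher, beside 15.6% and 2.78% of all tested genes. They were SLC30A6 (14.3 to 4.31 TPM, log2 fold -1.52) and SLC30A7 (8.83 to 3.59, -1.10), which carry zinc into the secretory pathway. SLC30A4 (1.95 to 0.647 TPM, -0.84) and SLC30A9 (29.4 to 17.3 TPM, -0.73) were short of 2-fold on the log2(TPM + 1) scale. For the scarce SLC30A4 this scale understates the fold, and its TPM fell more than 2-fold. The median of the 5 was -0.84, below the -0.42 of all tested genes, and SLC30A1, at 0.50, was the only tested exporter above 0. Relative to the median gene, SLC30A6 alone passed 2-fold (-1.10). In 8505C none of the 5 did, and their median was -0.17.

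**Figure D5:**
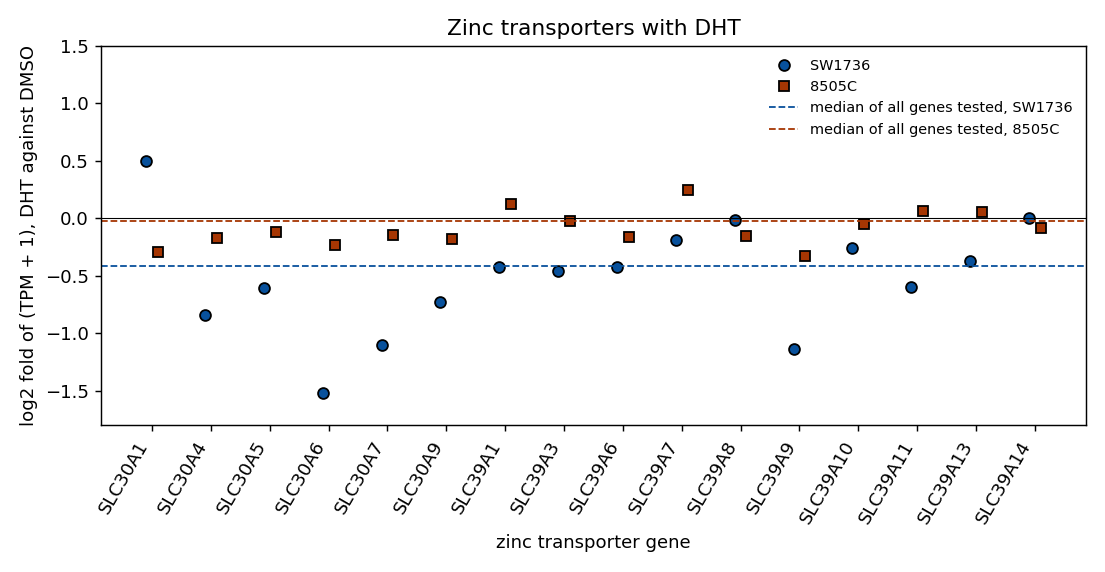
Log2 fold of (TPM + 1) with DHT against DMSO for SLC30A1 and the tested SLC30 and SLC39 zinc transporters with values in all 4 libraries, with circles for SW1736 and squares for 8505C (1 library each, no error bars). Dashed lines mark the median of all tested genes in each line. SLC30A1 is the highest circle at 0.50 and SLC30A6 the lowest at -1.52.

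Importers of the SLC39 family lay close to all tested genes with DHT. Of 14 importers 11 were tested, and 1, SLC39A9 (29.7 to 13.0 TPM, -1.14), was 2-fold lower in SW1736, or none relative to the median gene. None was higher, and of all tested genes 15.6% were lower and 2.78% higher. The median of the 11 was -0.37 in SW1736 and -0.03 in 8505C, beside -0.42 and -0.03 over all tested genes. The importers differed more between the untreated lines, where 3 were at least 2-fold higher in 8505C and 1 lower, beside 9.97% and 12.6% of all tested genes. Among the higher genes SLC39A4, the importer of dietary zinc in the gut, owes its place to a 0 (listed at 0 in SW1736 with DMSO, 38.0 TPM in 8505C), and the lower gene, SLC39A3, was at 93.8 and 37.7 TPM. SLC39A11 with DHT was at -0.60 in SW1736 and 0.06 in 8505C.

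Copper is the other metal that metallothioneins bind in healthy cells. Of 12 copper handling genes 11 were tested. On the log2(TPM + 1) scale none was 2-fold apart with DHT in either line, with a median of -0.29 in SW1736 and -0.05 in 8505C. Of all tested genes 2.78% were higher and 15.6% lower in SW1736, and 0.273% and 0.171% in 8505C. The copper exporters ATP7B (-0.63) and ATP7A (-0.51), the mitochondrial copper gene SCO1 (-0.56) and the chaperone gene CCS (-0.47) had the largest folds in SW1736. ATP7B stood near the floor there (0.886 to 0.221 TPM), where this scale understates the fold.

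Known inducers, partners and companions of metallothionein transcription were uneven in SW1736. Of 15 tested, 2 were at least 2-fold higher with DHT and 4 lower, or 2 and none relative to the median gene, beside 2.78% and 15.6% of all tested genes without centring. HMOX1, the heme oxygenase gene and like metallothioneins inducible by metals and oxidants, went from 28.2 to 619 TPM (log2 fold 4.41), and the chaperone gene HSPA1A from 84.3 to 1400 (4.04, with several rows and a near-identical copy). The 4 lower genes were TXNRD1 (-1.36), the coactivator gene EP300 (-1.25), FKBP5 (-1.21) and SP1 (-1.15), the last 2 named after their values were seen. Rows of other genes overlap TXNRD1, FKBP5, HSPA1A, SLC30A4, ATP7A and GNAO1, so reads may be shared. In 8505C none of the 15 was 2-fold apart (median -0.08), and HMOX1 was at 12.9 and 13.4 TPM.

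Genes whose 4 values ran most like a member's were sought among protein-coding genes averaging 5 TPM or more, by the Euclidean distance between log2(TPM + 1) profiles centred on their own mean over the 4 libraries. With 4 points in 2 lines such likeness is mostly a shared line difference. Nearest to MT2A was AKR1B1, the aldose reductase gene (distance 0.0893), at 674 and 872 TPM in SW1736 and 123 and 118 in 8505C, then ZNF503 (0.154) and HOMER2 (0.158). MT1X was nearest to COMTD1 (0.0760), SSR4 (0.0912) and SLX1A (0.113). MT1E had no close match, the nearest being the keratin gene KRT19 (0.534), at 607 and 883 TPM in SW1736 and listed at 0 in 8505C, before CD70 (1.39) and CRIP1 (1.53). SLC30A1 ran closest to KLHL15 (0.111), FAM133B (0.116) and EGLN1 (0.129), and MTF1 to CAPZA2 (0.0178), GNA12 (0.0233) and TAMM41 (0.0261). A distance under 0.5 was met by 35 genes for MT2A, 77 for MT1X, 793 for SLC30A1 and 2984 for MTF1, of 9749 compared.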

How the data were processed

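mRNA libraries of SW1736 and 8505C cells were made from total RNA with the Universal Plus mRNA-Seq kit, per the labels' protocols. The submitters' processing notes name bcl2fastq 2.20, StringTie and the build hg38. Aligner, annotation, strand setting, read length and StringTie version: not given in the sources used here. Each table deposited by the authors lists TPM, FPKM and mean coverage (an unscaled signal) for each gene, per the file headers. TPM as deposited has the same total in every library, so a gain of some mRNAs lowers all others.

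Here, rows of an identifier were summed (1446 identifiers had several), and 11706 protein-coding genes by RefSeq type, averaging 1 TPM or more, were compared as log2(TPM + 1). A gene counted where this differed by at least 2-fold. No test was made, with 1 library per group. Members and lists were chosen with earlier results of these data known. All members are named. Of each list up to 4 tested genes with the largest fold in either line are named, and further names serve as neighbours, counts or markers. mRNA lengths, coding sequences and shared windows came from GENCODE 29, promoters from RefSeq. Tools were matplotlib 3.10.9, numpy 2.4.6 and pandas 2.3.3 in Python 3.11.15. A few items are not reported here. The counting was tested on simulated data. Alternatives were other pseudocounts, filters, scalings and thresholds, FPKM, coverage and single rows.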

Additional observations from a re-analysis of the deposited data

Results flagged for a closer look

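For 3 members with values in all libraries, the library with DHT lay above its control in SW1736 and below it in 8505C, each line being 1 pair of libraries. The log2 fold of SW1736 minus that of 8505C was 0.795 for SLC30A1, 0.480 for MT1X and 0.278 for MT2A. These differences between the lines were not tested. Opposite signs were met by 36.9% of tested genes, and the median difference over all of them was -0.41. A difference at least as large was met by 3.57% of tested genes for SLC30A1, 5.68% for MT1X and 9.18% for MT2A. These shares are over mRNAs of all lengths, and folds in SW1736 differed with length. Genes with short mRNAs had a median log2 fold of 0.13 in SW1736 and 0.05 in 8505C. For the third with the longest mRNAs the medians were -0.72 and -0.07. The part of mRNA length in these line differences was not tested. For MT1X and MT2A the 8505C value lay within 0.02 of 0.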

How the results depend on the processing

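Of 72 alternative counts of members at least 2-fold apart, 65 were within 1.5 times the reported count. Many of these could not differ. Each member had a single row, and lifting the filter added only MT1G, listed at 0 throughout. Counts from single rows and without a filter therefore repeat the reported ones. Aligned bases were taken from coverage and FPKM, so the counts with coverage nearly repeat those with FPKM. With a threshold of 1.5-fold, 1 member (MT1F) was lower with DHT in SW1736. The member higher in 8505C than in SW1736, MT1A, was lost (count 0) with a pseudocount of 5 and with a mean of at least 5 TPM, in both the untreated and the DHT libraries, and for the DHT libraries also with FPKM and with coverage. Each of the 20 folds was recomputed under 5 alternatives. Of these 100 values, 93 kept their sign and side of 2-fold, 7 had the other sign (MT1E and MTF1 in SW1736, MT1X and MT2A in 8505C, under FPKM or centring), and 0 crossed 2-fold. The 93 include 20 single-row values that equal the reported folds by construction. Metallothionein shares computed from coverage were close to the reported ones in 16 of 16 cases, MT1F moving most (0.0525% beside 0.0574% in untreated SW1736). Within a library coverage and TPM of these genes are nearly proportional, so the shares could hardly differ and this is no check on them. No paired analysis was possible because each group holds 1 library. Read numbers are unknown, so values of a few TPM have no counting interval, and a gene listed at 0 is not shown to be absent.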
